A study of Mus musculus with 12 samples.

Results

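The nuclear-encoded subunits of the mitochondrial respiratory chain and ATP synthase were examined in sorted bone marrow myeloid cells. The rule for members reads gene symbols only: names of the Nduf (complex I), Sdh (complex II), Uqcr (complex III), Cox (complex IV, ubiquitous isoforms) and Atp5 (complex V) series, without assembly factors and without names that mark pseudogenes. This gave 76 of the 56953 listed genes, of which 36 belong to complex I, 4 to complex II, 8 to complex III, 10 to complex IV and 18 to complex V. They carry 75 symbols, because Atp5o has a second identifier, which had 0 counts in all 12 libraries and was not tested. The other 75 genes were tested in each comparison, so no filter on low values removed a member that had counts. Atp5s fits the symbol rule but encodes a factor that couples ATP synthase and is not a subunit. Ndufa4 is counted to complex I by its symbol, although its protein is now known as a subunit of complex IV.

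The cells came from 8-week-old female C57BL/6J mice carrying Rank cre/+ and R26.eYFP fl/+, in which Cre made from the Rank locus switches on eYFP in macrophages that arise in the embryo. All 4 groups of 3 libraries share this tissue, age and sex: macrophages with eYFP (eYFP+, of embryonic origin), macrophages without it (eYFP-, arising in the adult), and monocytes with high or low Ly6C (Ly6Chi, Ly6Clo). Macrophages were gated as F4/80hi cells with CD206 and VCAM1. Whether the libraries of a group are separate animals, and whether the 4 groups came from the same animals, is not stated in the sources used here. The p-values below therefore measure the spread between these libraries, which may be technical.

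The respiratory chain passes electrons from NADH (complex I) and succinate (complex II) through ubiquinone, complex III and cytochrome c to complex IV, which reduces oxygen. Complexes I, III and IV pump protons, and complex V uses the proton gradient to make ATP. Most subunits are encoded in the nucleus, a few of the core subunits by mitochondrial DNA, and both sets have to be made in matching amounts. Many of the nuclear genes are known to be driven by the transcription factors NRF1, GABP (an ETS factor) and YY1, and coactivators of the PGC-1 family raise them together. Macrophages are known to change their use of respiration when they are activated.

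Depth ranged from 26390927 counts (Ly6Clo replicate 2) to 48618187 counts (eYFP+ replicate 3). The members took 0.761% to 1.10% of the counts of a library, and 73 of the 75 had more than 100 counts in every library. The defining markers of the sorted cells were present: 12 macrophage markers summed to between 51174 and 67578 TPM (transcript abundance corrected for gene length and scaled to the same total in each library) in the 6 macrophage libraries and to between 593 and 3416 TPM in the 6 monocyte libraries. Red cell precursor transcripts were also found. The 17 erythroid markers, none at 0, summed to 23313 to 37217 TPM in eYFP- macrophages, 9217 to 15142 TPM in eYFP+ macrophages and 402 to 1452 TPM in monocytes. The 20 proliferation markers summed to 809 to 1297 TPM in eYFP- macrophages and 297 to 467 TPM in eYFP+ macrophages. The 14 neutrophil markers summed to 264 to 2784 and 124 to 216 TPM in the same groups, and to 6860 to 24614 TPM in monocytes. In bulk samples, fewer cells of a type and less RNA per cell cannot be told apart, and the part of these other cells in the values below was not tested.

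Levels were first compared between subunits, on the TPM scale and as the mean of 12 libraries. The members spanned 4.87 TPM (Atp5g2) to 1045 TPM (Cox4i1), and 51 of 75 exceeded 100 TPM. Complex IV had the highest median member (299 TPM), followed by complex II (258), complex III (192), complex V (161) and complex I (133). In complex I the highest was Ndufa2 (381 TPM) and the lowest Ndufb2 (8.51 TPM). In complex II the range was from Sdhc (79.1 TPM) to Sdhb (381 TPM). Uqcrc2 (94.4 TPM) and Uqcrc1 (412 TPM), the core proteins of complex III, were the lowest and highest of that complex. Cox5b (67.3 TPM) and Cox4i1 bounded complex IV, and Atp5g2 and Atp5b (672 TPM) bounded complex V. Subunit c of ATP synthase, the ring that turns in the membrane, is encoded by 3 genes with the same mature protein, and they differed widely. Atp5g3 had 402 TPM, Atp5g1 10.1 TPM and Atp5g2 4.87 TPM. Low TPM did not always mean few reads, since Ndufb2 had between 604 and 1136 counts and Atp5g1 between 655 and 1390 counts in each library. Only unambiguously aligned read pairs had been counted, so levels of subunits with processed copies are uncertain.

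The summed level of all members did not separate the 4 groups. It was 16162 ± 1354 TPM in eYFP+ macrophages, 16846 ± 958 in eYFP- macrophages, 16309 ± 597 in Ly6Chi monocytes and 16206 ± 2327 in Ly6Clo monocytes (SD, n = 3 each). The libraries of all 4 groups overlapped. For complex II alone the sum was 1092 ± 221 and 1051 ± 148 TPM in eYFP+ and eYFP- macrophages, 770 ± 14.2 in Ly6Chi and 993 ± 465 in Ly6Clo monocytes (SD, n = 3 each). The lowest macrophage library (926 TPM) lay above the highest Ly6Chi library (786 TPM), while Ly6Clo monocytes spanned 684 to 1527 TPM, the highest value being replicate 2. These sums were not tested.

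Embryonic and adult-derived macrophages were compared to ask whether developmental origin goes with a different set of respiratory chain transcripts. No member passed the test. DESeq2 called 0 members at an adjusted p under 0.05, beside 2.04% of the 21567 genes tested. Even at an unadjusted p under 0.05 it called 0 members, beside 8.77% of all genes. edgeR's quasi-likelihood test and limma on log2(TPM + 1) also called 0 members, beside 0.334% and 2.34% of the genes they tested. The lowest DESeq2 adjusted p of any member was 0.852. Log2 fold changes (eYFP+ minus eYFP-) ran from -0.64 (Ndufb10) to 0.29 (Ndufb2), with a median of 0.03 beside 0.05 over all genes. The median size of a difference, whatever its sign, was 0.10 for members and 0.39 for all genes tested, or 0.23 for tested genes with a mean of at least 1000 normalized counts. Levels differ too, since 65 of 75 members and 5698 of all genes tested had a mean of at least 1000 normalized counts.

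**Figure D1:**
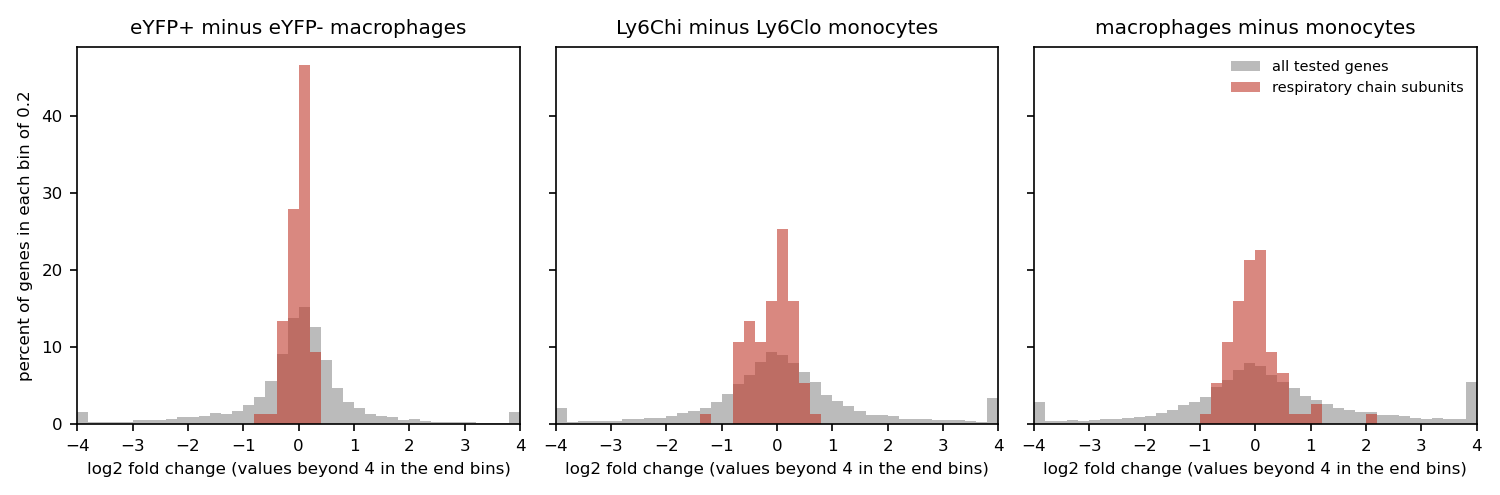
Log2 fold changes (horizontal axis) in the 3 comparisons as a percent of genes per bin (vertical axis), for the 75 tested respiratory chain subunits in red and all tested genes in grey. The subunits run from -0.64 to 0.29, -1.21 to 0.62 and -0.81 to 2.01 in the 3 panels, with medians of 0.03, -0.01 and -0.02. The bar farthest right among the subunits, in the panel of macrophages minus monocytes, is Atp5s (2.01). The genes in grey were not matched to the subunits by level.

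The data limit how large an undetected difference could be. For 60 of 75 members the 95% interval of the difference between macrophage groups lay within 2-fold in either direction, and over all members the interval bounds reached from -1.52 to 1.51 on the log2 scale. Core subunits of complex I on the path of electrons from NADH to ubiquinone gave log2 fold changes of -0.21 ± 0.23 (Ndufv1, SE), 0.19 ± 0.28 (Ndufs1), -0.36 ± 0.26 (Ndufs7) and -0.10 ± 0.31 (Ndufs8). The 4 subunits of complex II lay between 0.06 (Sdhd) and 0.18 (Sdhc). The Rieske protein Uqcrfs1 gave -0.39 ± 0.29, and normalized counts of 4215, 4393 and 4308 in eYFP+ and 7563, 4130 and 5265 in eYFP- macrophages overlapped. The catalytic beta subunit Atp5b gave -0.26 ± 0.40 and the alpha subunit Atp5a1 gave -0.10 ± 0.35. Without eYFP+ replicate 1 the median over members was -0.19, and 9 of 75 members in place of 42 had a positive value, still with 0 calls.

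Ly6Chi and Ly6Clo monocytes were compared next. DESeq2 again called 0 of 75 members, beside 8.62% of the 21567 genes tested. edgeR and limma also called 0, beside 4.32% and 6.42% of genes. At an unadjusted p under 0.05, 3 members passed, beside 20.7% of all genes. The median log2 fold change (Ly6Chi minus Ly6Clo) was -0.01 over members and 0.02 over all genes, and it ran from -1.21 (Ndufa12) to 0.62 (Atp5b). By complex the medians were -0.09 (I), -0.21 (II), -0.02 (III), 0.14 (IV) and 0.28 (V). For 45 of 75 members the 95% interval lay within 2-fold in either direction, fewer than between macrophages. Ly6Clo replicate 2 set much of this pattern. Without it the medians were 0.16, 0.06, 0.21, 0.12 and 0.12 for complexes I to V, 62 of 75 members had a positive value in place of 36, and Atp5s was called lower in Ly6Chi monocytes (log2 fold change -1.03, DESeq2 adjusted p = 0.0249). Without Ly6Clo replicate 1, Ndufa12 was called lower instead (-1.60, DESeq2 adjusted p = 0.0472).

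Ly6Clo replicate 2 stood apart from the other libraries of its group, across all genes as well as among the members. The SD of its log2 ratios to the mean of the other libraries was 2.09 over 13130 genes and 0.96 over the members, and the all-gene SD was 1.23 and 1.17 in Ly6Clo replicates 1 and 3. Relative to the mean of replicates 1 and 3, on the log2 scale, its median member was 0.72 higher in complex I, 0.74 in complex II, 0.48 in complex III and 0.26 in complex IV, but 0.50 lower in complex V. In complex I, 34 of 36 genes lay above the mean of the other libraries, and in complex V 7 of 17. The extremes were large. Ndufa12, an accessory subunit of complex I, had 450, 2275 and 701 normalized counts in replicates 1, 2 and 3. Sdhb, the iron-sulfur subunit of complex II, had 5638, 21215 and 6652, and Uqcrc1 had 10610, 37251 and 11392. ATP synthase genes went both ways. Atp5b had 23237, 8226 and 25673 and Atp5a1 had 21721, 9813 and 25076. Replicate 2 was thus the highest of its group for the first 3 genes and the lowest for the last pair. The log2 ratio was lowest for Atp5g2 (-4.07), while Atp5o (1.63), Atp5k (1.36) and Atp5g1 (1.22) lay above the rest of the group. Of the mitochondrially encoded transcripts, mt-Cytb was also highest there, with 56483, 377080 and 72413 normalized counts, but mt-Nd1 was not, with 65656, 65850 and 81869, and mt-Co1 was lowest there, with 73784, 65411 and 67713. This library was also the shallowest, and mitochondrially encoded transcripts took 1.92% of its counts, the highest share of the 12 libraries, where the other Ly6Clo libraries had 0.799% and 0.905%. mt-Cytb alone gave 281449 of its counts, against 66545 and 71285 in the others.

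**Figure D2:**
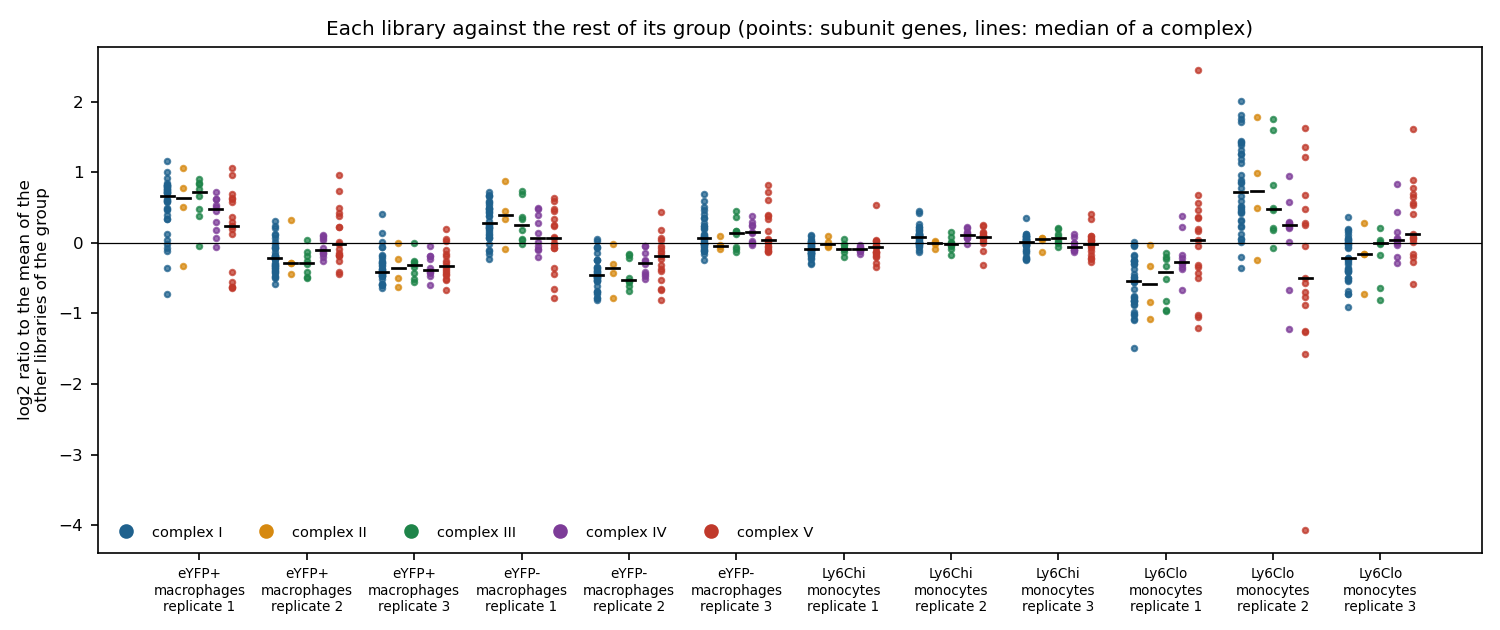
Each point is a subunit gene in 1 library, placed by its log2 ratio to the mean of the other libraries of the same group (vertical axis), for the 12 libraries (horizontal axis) and coloured by complex, with a bar at the median of each complex. Ly6Clo replicate 2 has the median of complex I at 0.72 and of complex V at -0.50. The median of eYFP+ replicate 1 is above 0 in all 5 complexes, and the Ly6Chi libraries lie close to 0.

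In eYFP+ replicate 1 the median shift had the same direction in all 5 complexes. Of 75 members, 62 exceeded the mean of the other eYFP+ libraries, and the median member was 0.59 above it. The medians were 0.67, 0.64, 0.72, 0.48 and 0.24 for complexes I to V. Atp5b was again the other way, with 17875 normalized counts beside 29043 and 26198. So were Atp5a1 (-0.41), Atp5d (-0.55), Atp5g2 (-0.64) and Atp5g3 (-0.63), which also lay below the group in Ly6Clo replicate 2. Ndufb10 was lowest in eYFP+ replicate 1 (-0.73) but lay above the group in Ly6Clo replicate 2 (1.38). Deviations from the group mean correlated at 0.70 between these libraries over members, and at 0.36 over 13130 genes. In eYFP- macrophages the median member of replicate 1 was 0.24 above and that of replicate 2 was 0.40 below the rest of the group, while in Ly6Chi monocytes the medians stayed between -0.08 and 0.08.

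Macrophages and monocytes were then compared, with the 2 groups of each cell type averaged on the log2 scale before the difference was taken. Here 14 of 75 members (18.7%) differed, beside 35.4% of the 22385 genes tested. Of these, 6 were higher in macrophages, beside 20.3% of all genes that were higher, and 8 were lower, beside 15% of all genes. Among the 65 members with a mean of at least 1000 normalized counts 12 (18.5%) were called, beside 46.4% of the 5698 genes at that level. edgeR called 14 members (6 higher, 8 lower), beside 35.6% of its genes, and they were the same genes. limma on log2(TPM + 1) called 16 members, 11 higher and 5 lower, beside 40.1%, and shared 11 of the 14. The correction for GC content and transcript length called 18, with 11 higher and 7 lower, beside 8315 of 22387 genes. TMM scaling called 14 (6 higher, 8 lower), beside 7921 of 22394 genes, and total-count scaling 15 (6 higher, 9 lower), beside 7862 of 23213. The median over members was -0.02, beside 0.08 over all genes. Normalized counts of the 6 macrophage and 6 monocyte libraries did not overlap for 7 members, beside 17.7% of all genes. In all, 3 members differed by more than 2-fold, namely Atp5s, Sdhc and Cox5a.

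**Figure D3:**
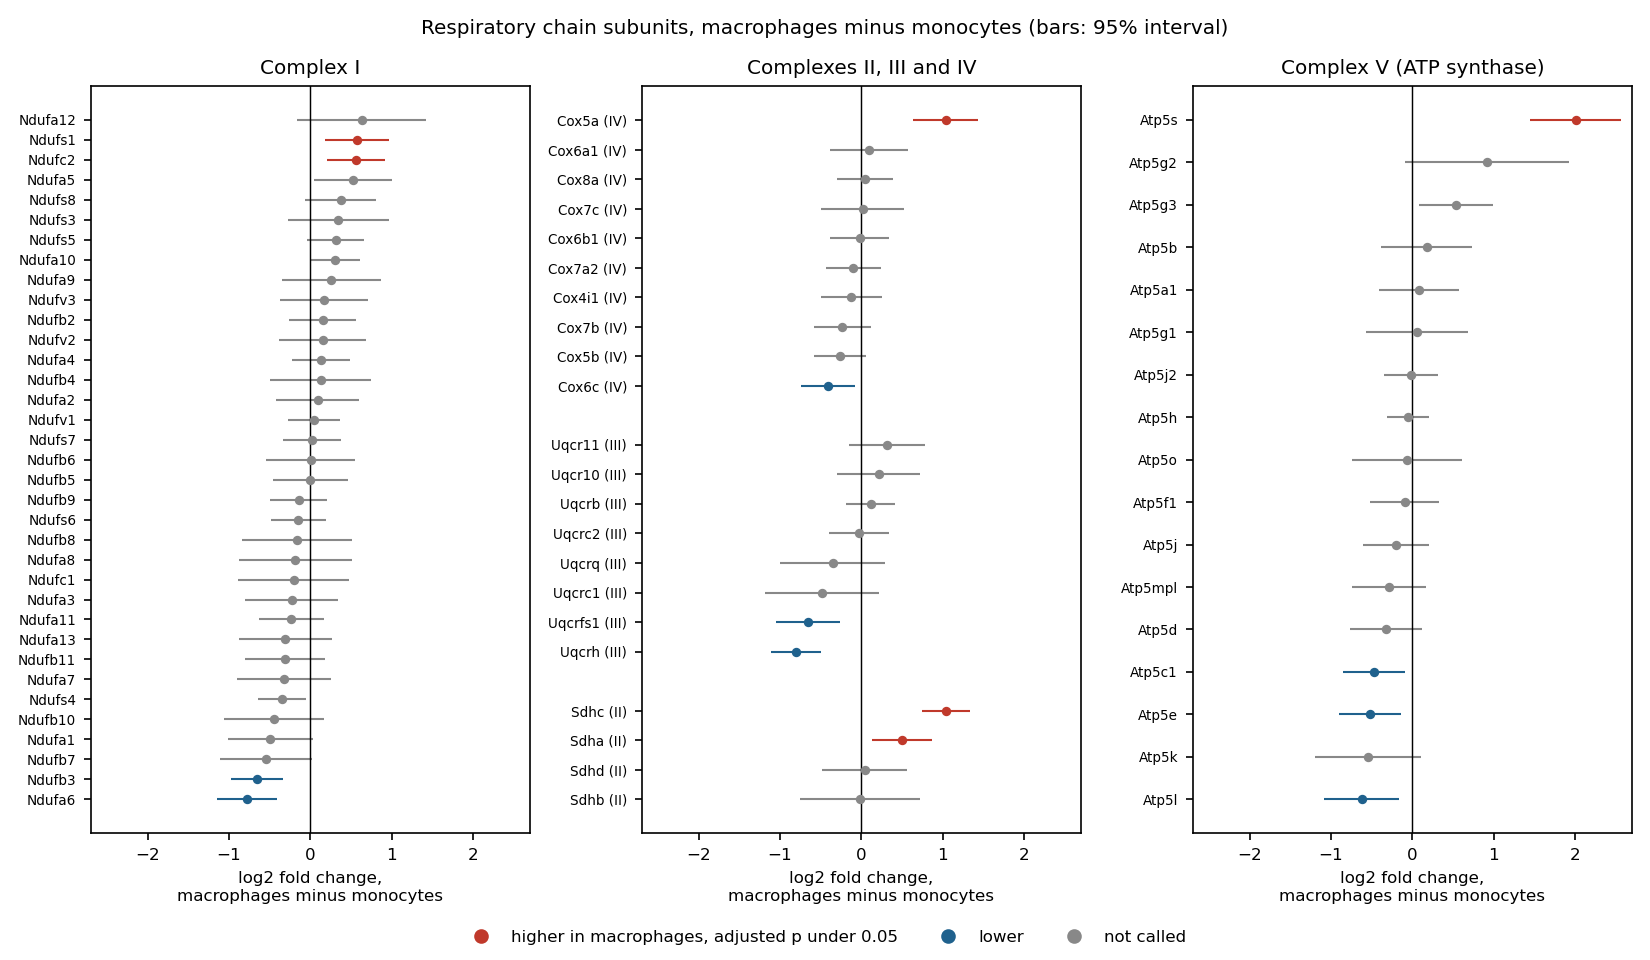
Log2 fold change of the subunit genes, macrophages minus monocytes (horizontal axis), by complex, with bars for the 95% interval and 1 uncalled gene not shown. The 6 genes in red passed the test as higher in macrophages, the 8 in blue as lower, and most other intervals cross 0.

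In complex II both called members were higher in macrophages. Sdhc (ENSMUSG00000058076) encodes 1 of the anchors that hold the enzyme in the inner membrane and form the ubiquinone site. It had 6018, 8141 and 6989 normalized counts in eYFP+ macrophages, 5982, 6185 and 6543 in eYFP- macrophages, 3403, 3285 and 3070 in Ly6Chi monocytes and 3141, 2842 and 3619 in Ly6Clo monocytes. Every macrophage library lay above every monocyte library. The fold was 2.05 (log2 1.04 ± 0.15, SE, DESeq2 adjusted p = 3.97e-11). Sdha, the flavoprotein that oxidises succinate, ranged from 13700 to 21221 (median 15248) in macrophages and from 9836 to 16323 (median 10851) in monocytes. These ranges overlapped through Ly6Clo replicate 2, and the log2 fold change was 0.50 ± 0.19 (DESeq2 adjusted p = 0.026). The call of Sdha was lost in 12 of 23 alternative fits. The remaining subunits did not pass, with -0.02 ± 0.38 for the iron-sulfur subunit Sdhb and 0.04 ± 0.27 for the second anchor, Sdhd.

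In complex IV the called members went in opposite directions. Cox5a (ENSMUSG00000000088), a nuclear subunit on the matrix side of cytochrome c oxidase, had 8812, 6158 and 5348 normalized counts in eYFP+ and 7976, 5118 and 6246 in eYFP- macrophages. In Ly6Chi monocytes it had 2769, 3204 and 2777, and in Ly6Clo monocytes 3223, 3951 and 3513. The groups did not overlap between cell types, and the fold was 2.05 (log2 1.04 ± 0.20, DESeq2 adjusted p = 2.23e-06). Cox6c, a small subunit in the membrane, was lower in macrophages, with a range of 2223 to 3050 (median 2583) against 2825 to 3925 (median 3538) in monocytes (log2 -0.41 ± 0.17, DESeq2 adjusted p = 0.0454), a call lost in 11 of 23 alternative fits. The largest nuclear subunit, Cox4i1, gave -0.12 ± 0.19 and Cox5b gave -0.26 ± 0.16, and neither passed.

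In complex III both called members were lower in macrophages. Uqcrh (ENSMUSG00000063882), the hinge protein that helps cytochrome c dock, had 3738, 2759 and 2622 normalized counts in eYFP+ and 3195, 2893 and 3327 in eYFP- macrophages. Monocytes had 5620, 5722 and 6213 (Ly6Chi) and 4663, 4811 and 5461 (Ly6Clo). All 6 macrophage libraries were below all 6 monocyte libraries, by 1.75-fold (log2 -0.81 ± 0.16, DESeq2 adjusted p = 2.18e-06). Uqcrfs1 was also lower (log2 -0.66 ± 0.20, DESeq2 adjusted p = 0.0045), with 4130 to 7563 in macrophages and 6074 to 8886 in monocytes. The ranges overlapped because of eYFP- replicate 1, the highest macrophage library. The core proteins Uqcrc1 (-0.48 ± 0.36) and Uqcrc2 (-0.03 ± 0.19) did not pass.

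In complex I, 2 members were higher and 2 lower. Ndufa6 (ENSMUSG00000022450), an accessory subunit that binds the mitochondrial acyl carrier protein, had 3337, 2287 and 2146 normalized counts in eYFP+ and 2757, 2080 and 2742 in eYFP- macrophages. Ly6Chi monocytes had 4213, 4701 and 4778 and Ly6Clo monocytes 3661, 4674 and 4301. These did not overlap between cell types, and the difference was 1.71-fold (log2 -0.78 ± 0.19, DESeq2 adjusted p = 1.83e-04). Ndufb3, an accessory subunit of the membrane arm, was lower as well, with 1416 to 1997 against 1923 to 3099 (log2 -0.66 ± 0.16, DESeq2 adjusted p = 3.14e-04). With GC and length correction it was -0.38 on the log2 scale and no longer called. Ndufs1, the largest subunit and a carrier of iron-sulfur clusters, was higher, with 3261 to 5827 (median 3708) in macrophages and 2311 to 3099 (median 2654) in monocytes (log2 0.57 ± 0.20, DESeq2 adjusted p = 0.0142). Ndufc2 was higher by a like amount, with 2864 to 4025 against 1970 to 2740 (log2 0.56 ± 0.18, DESeq2 adjusted p = 0.0083). The core subunits given here besides Ndufs1 were not called, at 0.05 ± 0.16 (Ndufv1), 0.02 ± 0.18 (Ndufs7) and 0.37 ± 0.22 (Ndufs8).

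In ATP synthase 3 subunits were lower and Atp5s was higher. The lower ones were the central stalk subunits gamma (Atp5c1, log2 -0.47 ± 0.20, DESeq2 adjusted p = 0.0462) and epsilon (Atp5e, -0.52 ± 0.20, 0.0244) and the membrane subunit g (Atp5l, -0.62 ± 0.23, 0.0246). All 3 overlapped between cell types, and their calls were lost in 9 (Atp5c1), 11 (Atp5e) and 12 (Atp5l) of 23 alternative fits. Atp5c1, for example, had 4556 to 7307 (median 5154) normalized counts in macrophages and 5864 to 9324 (median 8227) in monocytes. Atp5s (ENSMUSG00000054894) had 496, 450 and 414 in eYFP+ macrophages, 821, 462 and 641 in eYFP- macrophages, 132, 89 and 92 in Ly6Chi monocytes and 207, 88 and 220 in Ly6Clo monocytes. It was 4.02-fold higher in macrophages without overlap (log2 2.01 ± 0.28, DESeq2 adjusted p = 2.26e-11). The catalytic core did not pass, at 0.08 ± 0.25 for Atp5a1 and 0.17 ± 0.29 for Atp5b. The genes of subunit c gave 0.06 ± 0.32 (Atp5g1), 0.92 ± 0.52 (Atp5g2) and 0.54 ± 0.23 (Atp5g3, DESeq2 adjusted p = 0.0603). Atp5g3 was called higher in 6 of 23 alternative fits.

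**Figure D4:**
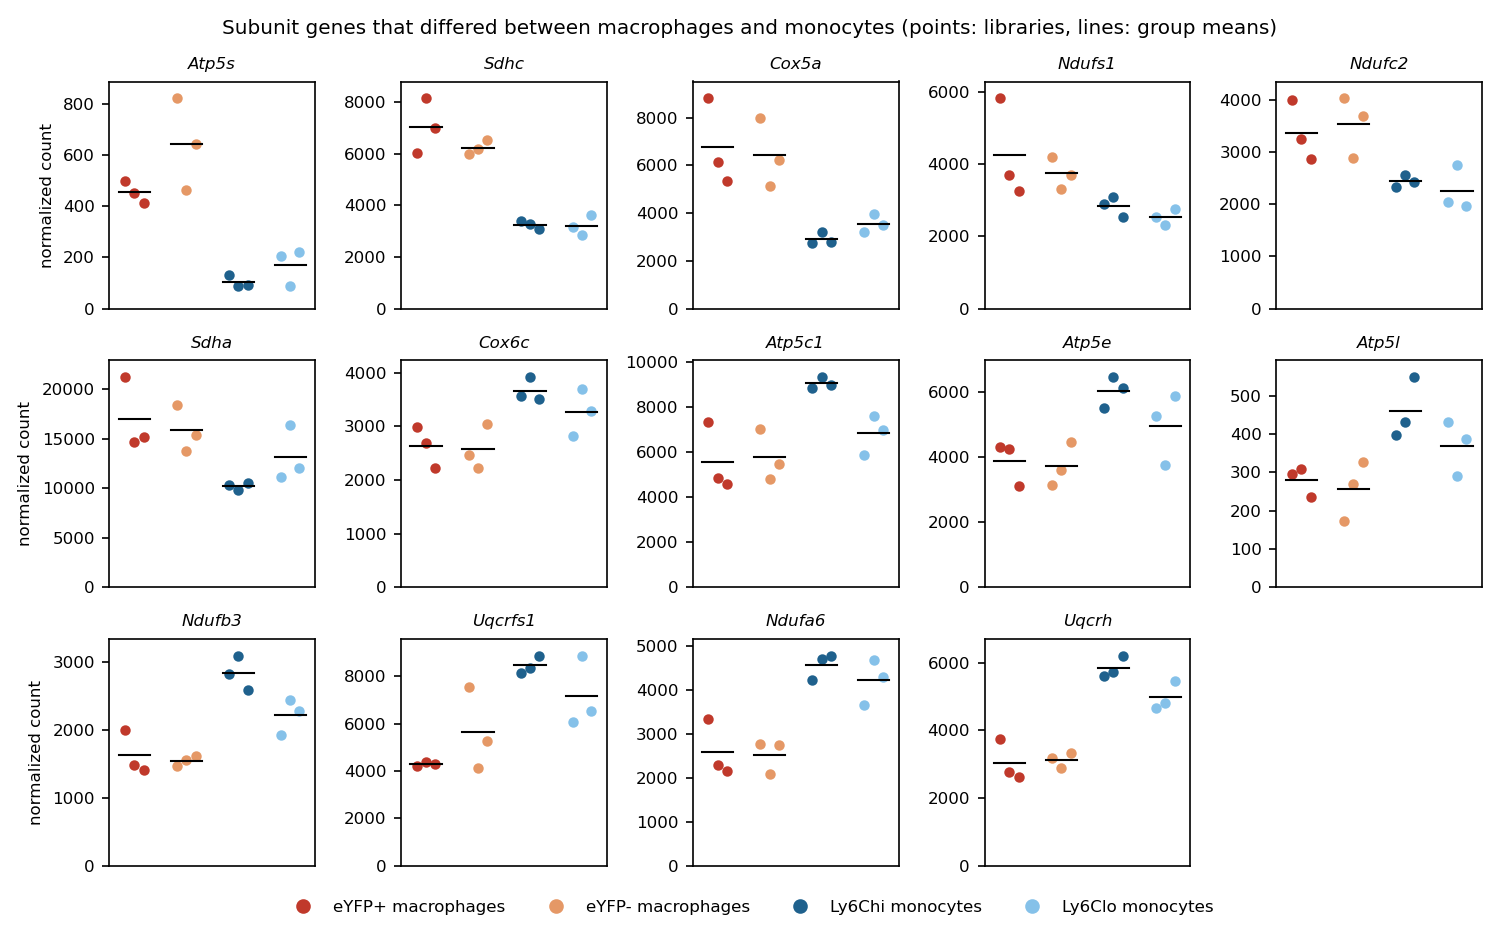
Normalized counts (vertical axis, from 0) of the 14 called genes in each of the 12 libraries, with lines at the means of the 4 groups. Sdhc and Cox5a show macrophage libraries at about 2 times the monocyte level, Uqcrh and Ndufa6 the reverse, and Sdha, Cox6c, Atp5c1, Atp5e, Atp5l, Ndufb3 and Uqcrfs1 overlap between cell types.

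Without Ly6Clo replicate 2, 21 members were called (11 higher, 10 lower), beside 9114 of the 23231 genes tested in that fit. Without it and eYFP+ replicate 1, 26 members were called, 11 higher and 15 lower, beside 9509 of 23069 genes. All 14 genes named above were among the 26. Of the 14, 7 (Ndufa6, Ndufc2, Sdhc, Uqcrh, Uqcrfs1, Cox5a and Atp5s) kept their call and direction in all 23 alternative fits.

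The promoters of the members were read from RefSeq, as the 250 bases before and 50 bases after the start of each gene (build GRCm38.p6, used here for sequence only). A promoter was found for 61 of the 75 symbols and for 10 of the 14 called genes. The core motif of NRF1 (GCATGCGC, either strand) was in 16.4% of the 61 promoters, beside 3.05% of the promoters of 27025 genes. An ETS core (CCGGAAG) was in 26.2%, beside 9.93%, and a YY1 core (AAGATGGC) in 14.8%, beside 3.19%. A TATA box (TATAAA) was in 8.20%, beside 15.7%. The ETS and YY1 cores can share the letters AAG, and no other pair was checked for overlap. Of the 10 called genes with a promoter, Ndufa6 held the NRF1 core, Uqcrh and Atp5e the ETS core and Atp5l both, with a TATA box, while Cox5a, Sdha, Ndufc2, Ndufb3, Uqcrfs1 and Atp5c1 held none of the 4 motifs. The promoters of Cox5a, Ndufa6 and Uqcrh are given as examples of called genes that did not overlap between cell types (Ndufc2, with no motif, is another), with capitals marking a motif. They were chosen after their values were seen. Cox5a lies on the plus strand at chr9:57520982-57521281, Ndufa6 on the minus strand at chr15:82354242-82354541 and Uqcrh on the minus strand at chr4:116075021-116075320. Each runs 5′ to 3′ along its gene and ends in the first bases of the transcript.
Cox5a: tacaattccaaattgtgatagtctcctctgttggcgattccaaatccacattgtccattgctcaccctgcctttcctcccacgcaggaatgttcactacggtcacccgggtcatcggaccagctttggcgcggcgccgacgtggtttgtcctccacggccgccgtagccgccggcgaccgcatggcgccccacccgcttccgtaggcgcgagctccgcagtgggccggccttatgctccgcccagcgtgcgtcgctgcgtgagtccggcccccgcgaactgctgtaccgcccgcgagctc
Ndufa6: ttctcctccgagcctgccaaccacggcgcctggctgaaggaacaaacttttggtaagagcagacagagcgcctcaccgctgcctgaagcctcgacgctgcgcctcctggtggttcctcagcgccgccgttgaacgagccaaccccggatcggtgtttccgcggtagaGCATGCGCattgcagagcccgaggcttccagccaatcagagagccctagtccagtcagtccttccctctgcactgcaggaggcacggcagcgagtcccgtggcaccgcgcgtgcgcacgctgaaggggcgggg
Uqcrh: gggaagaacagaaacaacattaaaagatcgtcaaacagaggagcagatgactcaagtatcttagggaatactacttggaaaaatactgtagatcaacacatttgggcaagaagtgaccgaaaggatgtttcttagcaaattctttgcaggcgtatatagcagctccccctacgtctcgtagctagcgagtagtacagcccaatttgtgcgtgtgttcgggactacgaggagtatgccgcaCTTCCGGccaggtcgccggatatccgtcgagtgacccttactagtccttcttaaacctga
The NRF1 core of Ndufa6 and the ETS core of Uqcrh (read on the other strand) each occur once in these windows.

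Subunits and tissue isoforms that the symbol rule leaves out were read from a separate list. Of 11 such genes 7 could be tested, and 6 were called between macrophages and monocytes, 4 higher and 2 lower, beside 35.4% of all genes. edgeR called 4 higher and 1 lower, and the lower call of Cox6b2 was lost in 16 of 23 alternative fits. Cox4i2, the isoform of subunit 4 known from lung and from low oxygen, had 530, 343 and 419 counts in eYFP+ and 456, 304 and 401 in eYFP- macrophages. It had 4, 5 and 0 counts in Ly6Chi and 7, 0 and 3 in Ly6Clo monocytes. The log2 fold change was 6.73 ± 0.49 (DESeq2 adjusted p = 3.15e-41). On the TPM scale it still stayed far below its partner isoform in macrophages, with 27.1 ± 6.35 and 22.9 ± 4.71 TPM (SD, n = 3) beside 874 to 1219 TPM of Cox4i1. The muscle isoforms Cox6a2 and Cox7a1 were higher in macrophages by 3.74 ± 0.72 and 1.45 ± 0.49, from low levels of at most 9.36 and 6.76 TPM in any library. Cox6a2 was also called lower in Ly6Chi than in Ly6Clo monocytes (DESeq2 adjusted p = 0.0262, edgeR adjusted p = 0.134), with 0, 1 and 3 against 8, 34 and 4 counts, and that call was lost in 10 of 24 alternative fits.

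Ndufab1, the acyl carrier protein that is a subunit of complex I and also serves fatty acid synthesis in mitochondria, was 2.29-fold higher in macrophages (log2 1.19 ± 0.22, DESeq2 adjusted p = 7.53e-07). All macrophage libraries (1080 to 1601 normalized counts) were above all monocyte libraries (445 to 978). Cox7a2l was lower in macrophages by 2.27-fold (log2 -1.19 ± 0.19, DESeq2 adjusted p = 2.54e-09). Its normalized counts were 7506, 4894 and 4674 in eYFP+, 5990, 4719 and 5655 in eYFP-, 11567, 11793 and 12243 in Ly6Chi and 11600, 15055 and 13956 in Ly6Clo libraries. The heme-carrying cytochrome c1 of complex III, Cyc1, was not called (-0.25 ± 0.26), although eYFP+ replicate 1 had 1870 normalized counts where the other macrophage libraries had 4519 to 6021. Of 7 further names listed only after the data were seen, 1 was higher and 2 were lower in macrophages (42.9% called, beside 35.4% of all genes). The lower ones were Ndufb1-ps (log2 -0.83 ± 0.24) and Cox6c2 (-0.47 ± 0.19), copies of or genes like subunits. The higher one, Atpif1, the inhibitor that stops ATP synthase from running backwards, was 2.83-fold higher in macrophages (SE of log2 0.27, DESeq2 adjusted p = 2.44e-07). It ranged from 4057 to 7976 normalized counts in macrophages and from 1528 to 3151 in monocytes, without overlap. Atpif1 is also known to act in red cell precursors, and erythroid markers moved in the same direction (17 of 17 higher in macrophages). Between eYFP+ and eYFP- macrophages, where the median erythroid marker had a log2 fold change of -1.52, Atpif1 gave -0.16 ± 0.38 and was not called. The part of red cell precursors in its level was not tested.

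**Figure D5:**
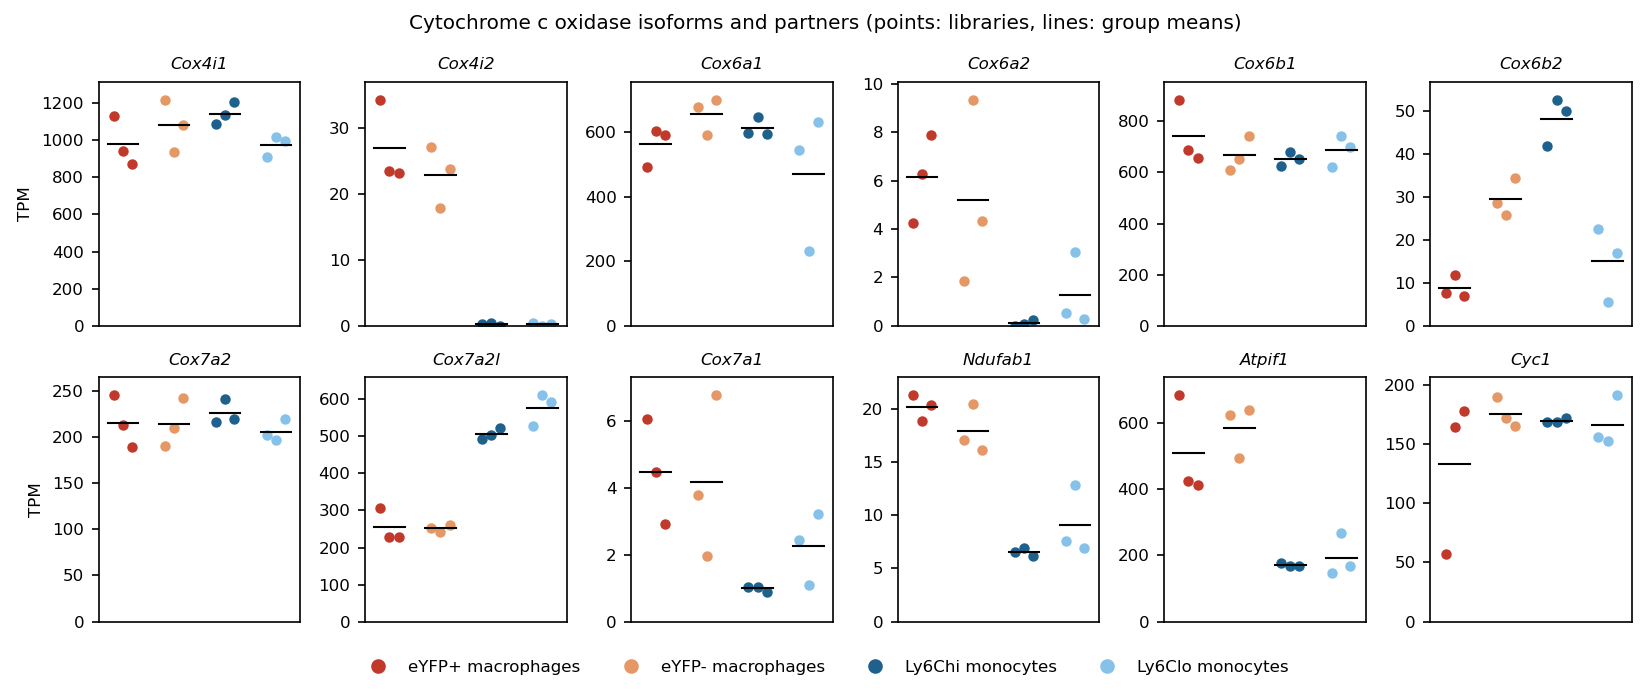
TPM (vertical axis, from 0) of cytochrome c oxidase isoforms and partner genes in the 12 libraries, with lines at group means. Cox4i1, Cox6b1 and Cox7a2 overlap between the cell types, while Cox4i2, Ndufab1 and Atpif1 are higher in every macrophage library and Cox7a2l is lower in every one.

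One of these genes differed between the macrophage groups. Cox6b2, the testis isoform of subunit 6b, had 95, 137 and 99 counts in eYFP+ and 384, 350 and 461 in eYFP- macrophages, which did not overlap. The log2 fold change was -1.73 ± 0.46 (DESeq2 adjusted p = 0.0128), but edgeR's quasi-likelihood test gave an adjusted p of 0.17, and the call was lost in 7 of 24 alternative fits. In monocytes it had 478, 525 and 501 counts (Ly6Chi) against 303, 52 and 203 (Ly6Clo), a log2 fold change of 1.71 ± 0.46 (DESeq2 adjusted p = 0.00415, edgeR adjusted p = 0.0525). Its ubiquitous counterpart Cox6b1, with 688 TPM over all libraries, gave 0.21 ± 0.26 between macrophages and -0.08 ± 0.26 between monocytes. Marker genes of other cells also fell in eYFP+ macrophages with DESeq2. These were 4 of 17 erythroid (Klf1, Slc4a1, Car1 and Car2), 9 of 20 proliferation (Ccnb2, Ccna2, Birc5, Aurkb, Tyms, Mcm2, Mcm5, Ube2c and Tpx2), 6 of 14 neutrophil (Mpo, Prtn3, Ctsg, Camp, Ngp and Lcn2) and 3 of 10 tested monocyte markers (among them Ccr2 and Spn). edgeR called 0, 2, 1 and 1 of these lists. Of all genes, DESeq2 called 2.04% and edgeR 0.334% in this comparison. Their part in the level of Cox6b2 was not tested.

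The 13 subunits encoded by mitochondrial DNA were read beside the nuclear ones. Among the 12 with an adjusted p, DESeq2 and edgeR called 0 between eYFP+ and eYFP- macrophages and 0 between the monocytes. Of all genes, DESeq2 called 2.04% and 8.62% in these comparisons, and edgeR 0.334% and 4.32%. At an unadjusted DESeq2 p under 0.05, 0 and 3 of the 12 passed, beside 8.77% and 20.7% of all genes. The median log2 fold change of the 12 was 0.37 between eYFP+ and eYFP- macrophages and -0.34 between Ly6Chi and Ly6Clo monocytes. In macrophages against monocytes the median was 0.32. DESeq2 called 1 of the 12 (8.33%), beside 35.4% of all genes, namely mt-Nd1 (0.57 ± 0.17, DESeq2 adjusted p = 0.003). It had 6175, 5297 and 4767 TPM in eYFP+, 3957, 5091 and 4233 in eYFP-, 2722, 2759 and 2494 in Ly6Chi and 3523, 3152 and 4109 in Ly6Clo libraries, and the cell types overlapped only through Ly6Clo replicate 3 and eYFP- replicate 1. DESeq2 gave mt-Cytb no adjusted p, because 1 library was an extreme count. The other mitochondrially encoded genes lay between -0.12 (mt-Nd3) and 0.50 (mt-Nd4).

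Genes that build, feed and regulate the chain were taken from lists, and those named here were picked after their values were seen. Of 48 tested assembly factors, 9 were higher and 1 lower in macrophages (20.8% called, beside 35.4% of all genes), with a median of 0.21. Nubpl, which delivers iron-sulfur clusters to complex I, gave 1.71 ± 0.29, Atpaf1, a chaperone of the ATP synthase beta subunit, 1.53 ± 0.36, and the putative methyltransferase of complex I Ndufaf7 -1.33 ± 0.34. Of 19 electron carriers and ATP exporters, 7 were higher and 3 lower (52.6%, beside 35.4%). Etfb, which passes electrons from fatty acid oxidation to ubiquinone, was among the higher (2.03 ± 0.21), as was the ADP/ATP carrier Slc25a4 (0.98 ± 0.19). Coq2 of ubiquinone synthesis (-2.16 ± 0.36) and the glycerol phosphate dehydrogenase Gpd2 (-1.37 ± 0.23) were lower. Cytochrome c itself, Cycs, did not pass (-0.74 ± 0.34). In the citrate cycle 3 of 13 enzymes were higher and 0 lower (23.1%, beside the same 35.4%), among them Suclg2 (1.44 ± 0.16) and Idh3a (0.80 ± 0.24). Among 16 regulators of mitochondrial gene expression, the coactivator Ppargc1b (2.72 ± 0.37) and Myc (2.16 ± 0.25) were higher and Yy1 (-0.87 ± 0.25) lower, which is 18.8% of the list beside 35.4%. Nrf1 (-0.55 ± 0.24), Gabpa (-0.64 ± 0.31) and Tfam (-0.50 ± 0.22) did not pass. Between the macrophage groups, 0 genes of these 4 lists were called by DESeq2 or edgeR, and 2 regulators had an unadjusted p under 0.05. Between the monocytes DESeq2 called 1 of 47 assembly factors (2.13%), 4 of 19 carriers (21.1%), 0 of 13 citrate cycle enzymes and 1 of 16 regulators (6.25%), all lower in Ly6Chi monocytes, beside 8.62% of all genes, and edgeR called 1, 0, 0 and 1.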

How the data were processed

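RNA of sorted macrophages and monocytes was sequenced in 12 libraries. The authors trimmed and corrected the reads, aligned them with segemehl to GRCm39 and counted unambiguously aligned read pairs over exons with featureCounts, and they deposited these counts and TPM values per gene. Their variance-stabilised table was not used, and 0 columns were left unmatched. Strand use is not given in the sources used here.

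Counts were tested with DESeq2 1.42.0 in 1 fit over all libraries, with 3 contrasts, median-of-ratios scaling and Benjamini-Hochberg adjustment over all genes tested (threshold 0.05). edgeR 4.0.16 (quasi-likelihood), limma 3.58.1 on log2(TPM + 1), other scalings, a filter of 10 counts in 3 libraries, GC and length correction, a replicate block and leaving out libraries were alternatives. Scripts were tested on simulated data. Core subunits, the highest and lowest members and the called members with the lowest adjusted p in each complex were named by rule; other called members were added. The members and lists were chosen with earlier results of these data known. A few genes of the lists are counted but not reported here by name.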

Additional observations from a re-analysis of the deposited data

How the results depend on the processing

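With 3 libraries a group, small differences could not be resolved, and 2 libraries (eYFP+ replicate 1 and Ly6Clo replicate 2, chosen after seeing the data) stood apart. Counts of called members are given here. Between macrophage groups the count stayed at 0 in the alternatives for the 75 members, and adding the subunits outside the symbol rule gave 1 (Cox6b2, lower). The median log2 fold change was -0.20 without both libraries. Between monocytes, GC and length correction gave 2 (Ndufb3 and Atp5c1, higher), beside 2149 of 20752 genes, and leaving out both libraries gave 1, beside 2696 of 19829. Adding the subunits outside the rule gave 2. Leaving out 1 library gave 0 to 1, with 2290 of 22191 genes called without Ly6Clo replicate 1 and 1936 of 19964 without replicate 2. Between macrophages and monocytes, leaving out both libraries gave 26 and leaving out 1 library gave 8 (without Ly6Chi replicate 3) to 21 (without Ly6Clo replicate 2). Of all genes, these fits called 9509 of 23069, 7040 of 21894 and 9114 of 23231. limma called 11 higher and 5 lower, and GC and length correction 11 higher and 7 lower, without Ndufb3, Atp5l and Sdha. Of all genes, limma called 4880 higher and 2831 lower, and GC and length correction 4972 higher and 3343 lower. The causes were not tested.

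The replicate block gave 9 called members between macrophages and monocytes (5 higher, 4 lower), where Atp5c1, Atp5e, Atp5l, Sdha and Cox6c were not called. That fit tested 33935 genes and called 7804. The same block with at least 10 counts in 3 libraries tested 19228 genes and called 7746, among them all 14 members. edgeR tested 19189 genes with or without the block. It called 10 members and 6012 genes with the block, and 14 members and 6826 genes without it. Same-numbered libraries correlated at 0.297, 0.169 and 0.0589 in macrophages and at 0.111, 0.0435 and 0.0023 in monocytes over 13130 genes. Not every library correlated best with its own number, but the libraries that stood apart enter these values, so they cannot settle pairing. The sample labels number the libraries in order of replicate, with the 4 groups of a replicate side by side. What the libraries of a replicate share is not stated, so the block was kept as an alternative only. No called member changed sign, but medians over members, all near 0, did: from -0.20 to 0.16 between macrophage groups, -0.12 to 0.14 between monocytes and -0.15 to 0.07 between macrophages and monocytes.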
